A study of Mus musculus with 16 samples.

Results

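The microRNAs described here are the mouse miR-200 family (mmu-miR-200a-3p, mmu-miR-200b-3p, mmu-miR-200c-3p, mmu-miR-141-3p and mmu-miR-429-3p) and mmu-miR-203-3p, called by their names without the prefix below, which are known as markers of epithelial cells. They were taken by name from the deposited table of mature microRNA counts, and they make up 6 of its 1915 entries. The libraries come from extracellular vesicles (EVs) of mouse bone marrow plasma, captured through an HA tag that the CAGS-Snorkel reporter carries. In the group called Ocn (CAGS-Snorkel//Ocn-Cre, 6 libraries), Cre is driven by the osteocalcin promoter, which is active in mature osteoblasts and osteocytes. In the group called Prx1 (CAGS-Snorkel//Prx1-Cre, 10 libraries), Cre is active in early limb mesenchyme and its descendants. All mice were C57BL/6N and 6 months old, with 3 males and 3 females in Ocn and 5 males and 5 females in Prx1, and all carried the reporter and a Cre driver. Neither Cre-negative mice nor plasma taken without capture could be set beside them as a background, since no such library was used here.

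MicroRNAs of about this length guide Argonaute proteins to messenger RNAs, mainly through the seed, the bases 2 to 8 from the 5′ end. The miR-200 family is abundant in epithelia, where it represses the transcription factors Zeb1 and Zeb2, which in turn repress epithelial genes and the miR-200 genes themselves. miR-203 is best known from stratified epithelia such as skin, where it restrains the stem cell factor p63. All 6 are scarce in mesenchymal cells, the lineage in which both Cre drivers are active.

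The sequences are shown because the family falls into seed groups that cut across its gene clusters, and because near-identical members can exchange reads. They are RefSeq mature sequences of mouse assembly GRCm38.p6, 5′ to 3′, with the seed in capitals.
miR-203-3p: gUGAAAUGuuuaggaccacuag
miR-200c-3p: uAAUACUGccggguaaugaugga
miR-200b-3p: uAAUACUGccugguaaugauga
miR-429-3p: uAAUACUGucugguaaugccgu
miR-141-3p: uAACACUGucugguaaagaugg
miR-200a-3p: uAACACUGucugguaacgaugu

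miR-200c-3p, miR-200b-3p and miR-429-3p share the seed AAUACUG, miR-141-3p and miR-200a-3p share AACACUG, and miR-203-3p has UGAAAUG. Of the 1623 entries of the table that matched a RefSeq mature sequence by name, none other carries any of these seeds. Counted from the 5′ end and with the base of the first-named microRNA first, miR-141-3p and miR-200a-3p differ by A17C and G22U and have the same first 16 bases. miR-200c-3p and miR-200b-3p differ by G11U and G22A over the 22 positions they share. miR-200b-3p and miR-429-3p differ by C9U, A19C, U20C and A22U. How the authors' counting assigned reads that match several of these entries is not given in the sources used here, so a read shortened at its 3′ end could be counted under the wrong member of the miR-141-3p and miR-200a-3p pair.

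The genes lie in 3 places of GRCm38, the assembly that mm10 names. Mir200b, Mir200a and Mir429 form a cluster of 1846 bases at chr4:156053905-156055750 on the minus strand, within an intron of Ttll10. Mir429 also overlaps an exon of the noncoding Gm13648, in an intron of which the other members of that cluster lie. Mir200c and Mir141 form a cluster of 477 bases at chr6:124717914-124718390 on the minus strand, in an intron of the noncoding Gm15884 and outside protein-coding genes, with Phb2 the nearest of those, and Mir141 also overlaps an exon of Gm29008, an entry still to be verified experimentally. Mir203 lies outside other GENCODE genes at chr12:112130880-112130955 on the plus strand, 3321 bases from Aspg. Each cluster thus holds both miR-200 seeds.

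Library totals were 582660 to 1536421 counts for Ocn, against 225273 to 813770 counts for Prx1, so the Ocn libraries were deeper. Levels are given as CPM, the counts per 1000000 counts of the library total, and 1 count was worth between 0.651 CPM in the deepest and 4.44 CPM in the shallowest library. Prx1 5 stood apart in the liver microRNA miR-122-5p, with 555 counts against 0 to 19 counts in each other library, while its 6 epithelial microRNAs summed to 275 CPM, within the 232 to 360 CPM of the Prx1 libraries. Ocn 3 was the highest Ocn library for 5 of the 6 epithelial microRNAs, but also in the sums of other marker lists given below. It is named beside the results it touches.

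The 6 microRNAs were present in both groups but made up a small share of the counts. By mean level over all libraries, miR-203-3p, miR-200c-3p and miR-141-3p still stood above 86.9%, 85.4% and 81.1% of the entries with a count. Together they reached 319 ± 75 CPM over the Ocn libraries and 288 ± 48 CPM over the Prx1 libraries (SD, n = 6 and 10), which is 0.0319% ± 0.0075 of all microRNA counts in Ocn and 0.0288% ± 0.0048 in Prx1. The sum ran from 258 CPM in Ocn 1 to 463 CPM in Ocn 3, and from 232 CPM in Prx1 1 to 360 CPM in Prx1 2. Every Ocn library other than Ocn 3 lay inside the range of the Prx1 libraries. All of this rests on 1754 counts in Ocn and 1188 counts in Prx1.

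**Figure D1:**
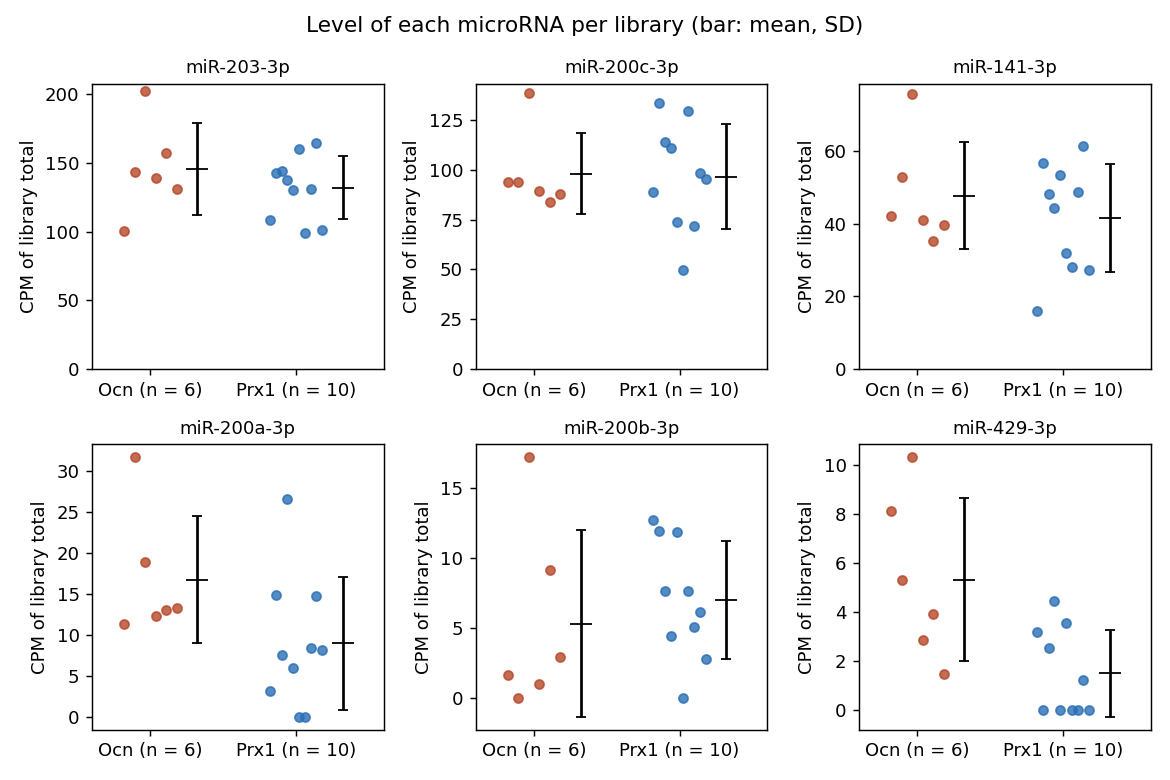
Level of each microRNA per library in CPM of the library total (y axis, each panel with its own scale), Ocn left and Prx1 right, with 1 point per library and the mean and SD beside the points. The libraries of the groups overlapped for all 6, miR-203-3p being the most abundant and miR-429-3p the scarcest by the mean of all 16 libraries.

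mmu-miR-203-3p was the most abundant of the 6 and ranked 127 among all entries by the mean of the 16 libraries, between miR-486a-3p at 140 CPM and miR-18a-5p at 134 CPM. It was counted in all 16 libraries, with 62 to 242 counts per Ocn library and 31 to 134 per Prx1 library. Its level ran from 101 CPM in Ocn 1 through a median of 141 CPM to 203 CPM in Ocn 3, and in Prx1 from 99.1 CPM in Prx1 7 through a median of 134 CPM to 165 CPM in Prx1 9. The groups overlapped, and only Ocn 3 lay above every Prx1 library. The means were 146 ± 34 CPM over the Ocn libraries and 132 ± 23 CPM over the Prx1 libraries (SD, n = 6 and 10). The log2 fold change of Ocn over Prx1 was 0.10 (SE 0.15, edgeR quasi-likelihood adjusted p = 0.727), with a 95% interval from -0.21 to 0.42. In linear terms that interval runs from 0.863-fold to 1.33-fold.

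mmu-miR-200c-3p, the most abundant carrier of the seed AAUACUG, was also counted in all 16 libraries, with 58 to 129 counts per Ocn library and 14 to 80 per Prx1 library. In Ocn it ran from 84.0 CPM in Ocn 5 through a median of 91.7 CPM to 139 CPM in Ocn 3, and in Prx1 from 49.7 CPM in Prx1 6 through a median of 97.0 CPM to 134 CPM in Prx1 2. Apart from Ocn 3, the Ocn libraries lay between 84.0 and 94.2 CPM, inside the wider range of Prx1. The means of 98.1 ± 20.4 CPM over the Ocn libraries and 96.7 ± 26.6 CPM over the Prx1 libraries (SD, n = 6 and 10) differed by less than the spread in either group. The log2 fold change was -0.023 (SE 0.18, edgeR adjusted p = 0.936), with a 95% interval from -0.39 to 0.35, and its sign changed with the scaling and with the library left out.

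mmu-miR-141-3p, encoded beside miR-200c in the chromosome 6 cluster but with the other seed, had 26 to 60 counts per Ocn library and 5 to 50 per Prx1 library. In Ocn it ran from 35.1 CPM in Ocn 5 through a median of 41.5 CPM to 75.5 CPM in Ocn 3, and in Prx1 from 15.9 CPM in Prx1 1 through a median of 46.2 CPM to 61.4 CPM in Prx1 9. The groups overlapped, and the median of Prx1 was above that of Ocn although the mean was below. The means were 47.7 ± 14.8 CPM over the Ocn libraries and 41.6 ± 14.9 CPM over the Prx1 libraries (SD, n = 6 and 10). The log2 fold change was 0.11 (SE 0.23, edgeR adjusted p = 0.807), with a 95% interval from -0.37 to 0.60.

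These 3 were the members that passed the filter on low counts, and 0 of them passed the edgeR test, where 32 of all 234 entries tested did (13.7%). None of the 6 had libraries of the groups apart from each other, which held for 9 of the 234 (3.85%). Only 3 of the 6 are among those 234, and at that share so few entries would seldom show it. The 32 calls were 14 higher (5.98% of those tested) and 18 lower in Ocn (7.69%), and with upper quartile scaling the split was 26 higher and 11 lower. With depth (log10 of the total) as a covariate, edgeR called 0 entries, with 40 at an unadjusted p under 0.05. The Ocn libraries were also the deeper ones, so this fit separates depth from group poorly. The SE of miR-150-5p, for example, rose from 0.20 to 0.29 in it. Under this covariate the log2 fold changes were 0.017 for miR-203-3p, 0.14 for miR-200c-3p and 0.026 for miR-141-3p, with edgeR adjusted p of 0.987, 0.802 and 0.987. The 95% interval of miR-141-3p reached up to 1.51-fold higher in Ocn, so a change within that interval could not be told from none at this depth. In such bulk EV samples, fewer vesicles from a cell type and less of a microRNA per vesicle cannot be told apart.

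**Figure D2:**
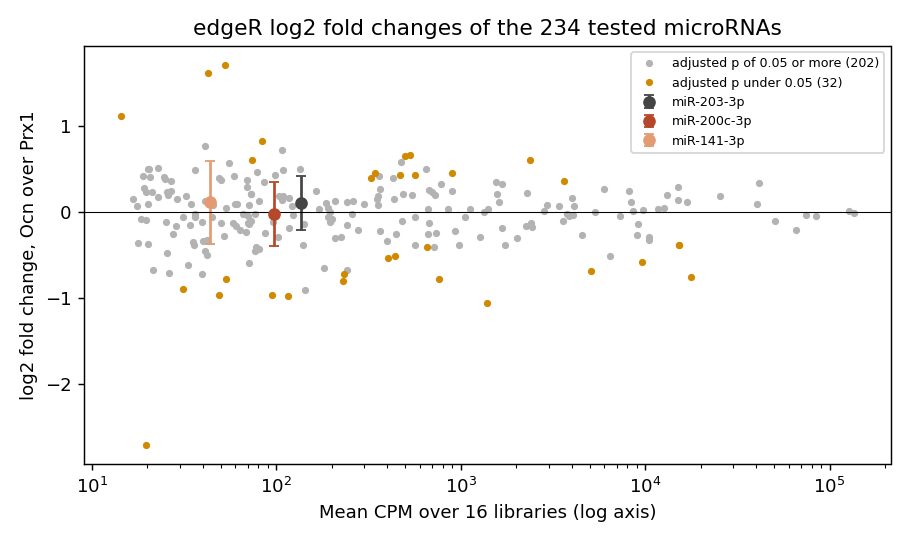
Log2 fold change of Ocn over Prx1 (y axis) against the mean CPM over 16 libraries (x axis, log scale) for the 234 tested microRNAs, with entries past an adjusted p of 0.05 in orange. The 3 epithelial microRNAs that were tested are drawn with their 95% intervals, each of which includes 0.

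The chromosome 4 cluster was close to the limit of counting. mmu-miR-200a-3p, which shares its seed with miR-141-3p, was counted in 6 of 6 Ocn libraries (7 to 36 counts) and in 8 of 10 Prx1 libraries (0 to 12 counts). In Ocn it ran from 11.3 CPM in Ocn 1 through a median of 13.1 CPM to 31.7 CPM in Ocn 2, and in Prx1 from 0 counts in Prx1 6 and Prx1 7 through a median of 7.90 CPM to 26.6 CPM in Prx1 4. A count of 0 allows up to 10.7 CPM in Prx1 6 and 7.62 CPM in Prx1 7, taking 3 counts as the limit. The groups overlapped, with 3 Prx1 libraries inside the range of Ocn.

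The means of miR-200a-3p were 16.8 ± 7.8 CPM over the Ocn libraries and 8.95 ± 8.08 CPM over the Prx1 libraries (SD, n = 6 and 10). The difference in mean log2(CPM + 1) was 1.34 (2-sided exact permutation test, p = 0.0683, adjusted p = 0.548 over the 973 entries with a count). Without a low-count filter edgeR gave a log2 fold change of 0.95 (SE 0.37, unadjusted p = 0.00949, adjusted p = 0.134). With a filter of 10 CPM in 6 libraries edgeR gave 0.88 (SE 0.42, unadjusted p = 0.0453, adjusted p = 0.201). DESeq2 gave 0.90 (SE 0.47, unadjusted p = 0.0542, adjusted p = 0.270). None of these tests passed after adjustment. Pooled over the libraries of a group, its level was 17.1 CPM in Ocn and 9.11 CPM in Prx1.

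mmu-miR-200b-3p, with the seed AAUACUG, was counted in 5 of 6 Ocn and 9 of 10 Prx1 libraries. In Ocn it had 0 counts in Ocn 2, 1 count each in Ocn 1 and Ocn 4, 2 counts in Ocn 6, 10 counts in Ocn 3 and 14 counts in Ocn 5, the deepest library. In Prx1 no library had more than 5 counts. The level ran from 0 through a median of 2.28 CPM to 17.2 CPM in Ocn, and from 0 through a median of 6.87 CPM to 12.7 CPM in Prx1. The Ocn libraries thus split into 2 with 9.11 CPM or more and 4 with 2.94 CPM or less, while 5 of the 10 Prx1 libraries lay between those values. The means were 5.3 ± 6.7 CPM over the Ocn libraries and 7.0 ± 4.2 CPM over the Prx1 libraries (SD, n = 6 and 10), and without Ocn 3 the Ocn mean was 2.92 CPM. The difference in mean log2(CPM + 1) was -0.74 (exact permutation p = 0.286, adjusted p = 0.790). It was -1.87 in counts thinned in a single random draw to the depth of the shallowest library (adjusted p = 0.487 by exact permutation), -1.18 without Ocn 3 and -0.34 without Ocn 2.

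mmu-miR-429-3p, the third carrier of AAUACUG, was the scarcest, with 27 counts over all Ocn libraries and 5 counts over all Prx1 libraries. It had 1 to 6 counts in each of the 6 Ocn libraries, and 1 count in 5 of 10 Prx1 libraries with 0 counts in the other 5. In Ocn it ran from 1.47 CPM in Ocn 6 through a median of 4.59 CPM to 10.3 CPM in Ocn 3, and in Prx1 from 0 through a median of 0.614 CPM to 4.44 CPM in Prx1 4. The Ocn libraries lay toward the upper end, but the groups overlapped. Every Prx1 library stood below the limit of 3 counts, and of the Ocn libraries only Ocn 6 did.

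The means of miR-429-3p were 5.32 ± 3.33 CPM over the Ocn libraries and 1.49 ± 1.77 CPM over the Prx1 libraries (SD, n = 6 and 10), with a difference in mean log2(CPM + 1) of 1.51 (exact permutation p = 0.0141, adjusted p = 0.282). That difference depends on the pseudocount, with 1.96 at 0.5 CPM and 0.65 at 5 CPM (exact permutation adjusted p = 0.292 and 0.212). Of the 973 entries, 105 had an exact permutation p under 0.05 before adjustment (10.8%) and 12 passed after it (1.23%), none of them among the 6. Without a low-count filter edgeR gave miR-429-3p a log2 fold change of 1.87 (SE 0.72, unadjusted p = 0.00948, adjusted p = 0.134), and DESeq2 gave 1.97 (SE 0.83, adjusted p = 0.129). In the thinned counts, each library was reduced in a single random draw to the 225273 counts of the shallowest. That left 7 counts over the 6 Ocn libraries and 4 counts over the 10 Prx1 libraries. The difference in mean log2(CPM + 1) was then 1.03 (exact permutation adjusted p = 0.924).

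**Figure D3:**
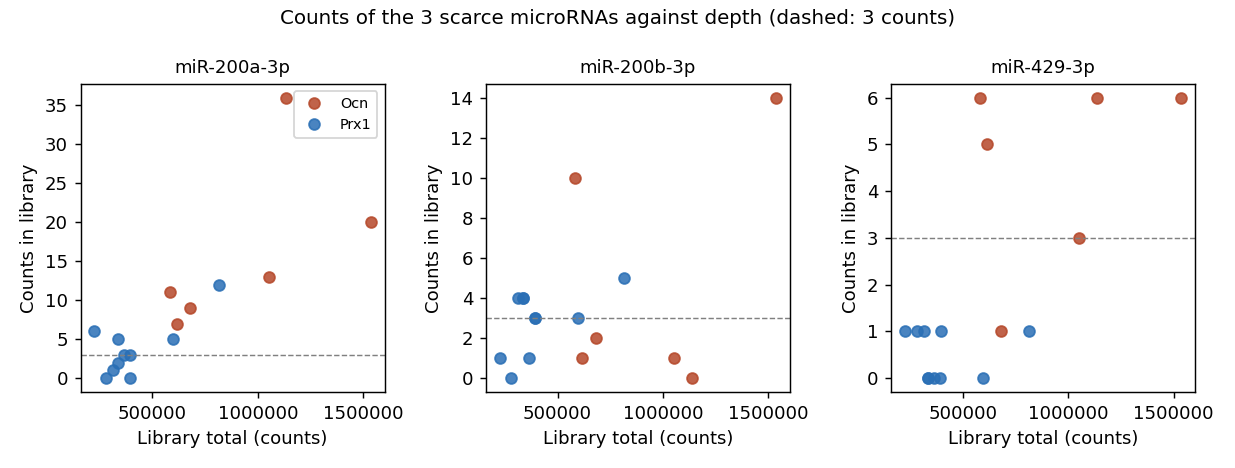
Counts of miR-200a-3p, miR-200b-3p and miR-429-3p (y axis) against the library total in counts (x axis), with 1 point per library and a dashed line at 3 counts. For miR-429-3p no Prx1 library had more than 1 count, at totals from 225273 to 813770, and the Ocn libraries had 1 to 6 counts at higher or overlapping totals.

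Depth alone changes how many libraries show such scarce microRNAs. At the depth of the shallowest library, miR-429-3p would be expected in 4.04 of the 6 Ocn and 3.36 of the 10 Prx1 libraries, in place of the 6 and 5 observed. miR-200b-3p would be expected in 3.02 of the 6 Ocn and 7.99 of the 10 Prx1 libraries, and miR-200a-3p in 5.84 of the 6 Ocn and 7.35 of the 10 Prx1 libraries. miR-203-3p and miR-200c-3p would be seen in every library. Of the 6 microRNAs, a library showed 5.83 ± 0.41 in Ocn and 5.20 ± 0.79 in Prx1 as deposited, and 5.15 ± 0.49 in Ocn and 4.87 ± 0.68 in Prx1 would be expected at equal depth (SD, n = 6 and 10). Among all 1915 entries of the table, 277 were counted in all 16 libraries and 942 in none.

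From miR-203-3p down to miR-200a-3p, the order of the members was nearly the same in every library. miR-203-3p exceeded miR-200c-3p in 6 of 6 Ocn and 9 of 10 Prx1 libraries, the exception being Prx1 7 with 99.1 CPM of miR-203-3p and 130 CPM of miR-200c-3p, although the ranges of these neighbours overlapped in both groups. miR-200c-3p exceeded miR-141-3p in all 16 libraries, and miR-141-3p exceeded miR-200a-3p in all 16. At the low end the order was not fixed. miR-200a-3p exceeded miR-200b-3p in 6 of 6 Ocn libraries and in 5 of 10 Prx1 libraries, and miR-200b-3p exceeded miR-429-3p in 3 of 6 Ocn libraries and in 8 of 10 Prx1 libraries. Levels of different microRNAs also carry the ligation and amplification bias of each sequence, which was not measured here.

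**Figure D4:**
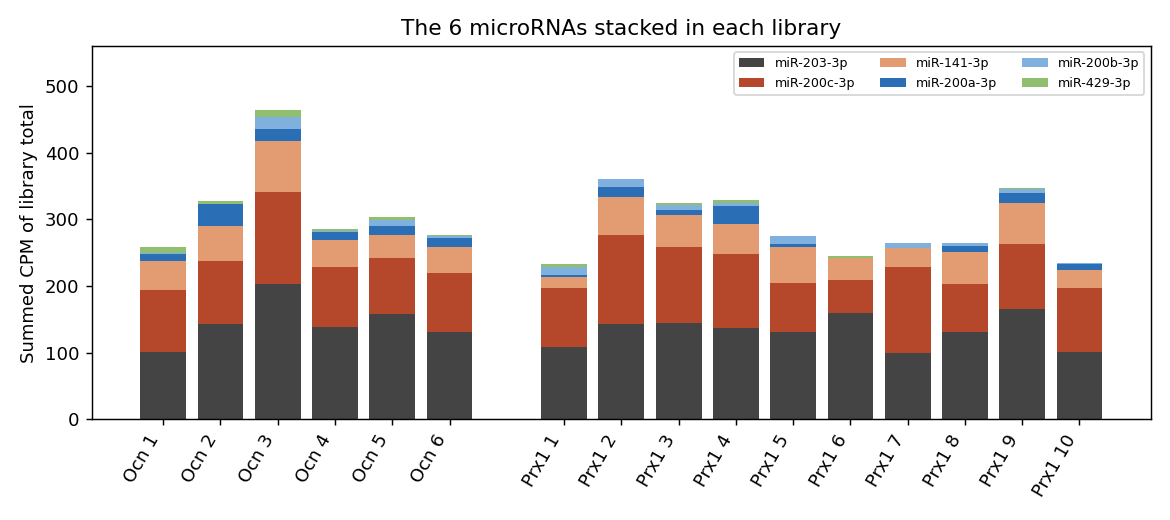
Summed CPM of the library total (y axis) of the 6 microRNAs in each library (x axis), Ocn at the left and Prx1 at the right, with 1 colour per microRNA. Ocn 3 had the highest sum, 463 CPM, and miR-203-3p and miR-200c-3p made up most of the height in every library.

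Within the 6, miR-203-3p made up 45.8% ± 4.6 of the counts over the Ocn libraries and 46.3% ± 7.6 over the Prx1 libraries (SD, n = 6 and 10). miR-200c-3p followed with 31.0% ± 3.1 in Ocn and 33.7% ± 8.3 in Prx1, and miR-141-3p with 14.8% ± 1.8 in Ocn and 14.2% ± 3.9 in Prx1. The scarce chromosome 4 members each made up less than 5.3% on average in either group. Among the miR-200 counts alone, the chromosome 6 cluster gave 84.6% ± 3.7 in Ocn and 89.2% ± 4.5 in Prx1. The seed AAUACUG accounted for 63.0% ± 4.6 of the miR-200 counts in Ocn and 67.7% ± 9.9 in Prx1, so both seeds were represented in every library. The ratio of miR-200c-3p to miR-141-3p, products of a single cluster, was 1.78 to 2.39 in Ocn and 1.39 to 5.60 in Prx1. The highest ratio, in Prx1 1, rests on 5 counts of miR-141-3p.

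Ocn 3 was the highest Ocn library for 5 of the 6 microRNAs, all but miR-200a-3p. Its total of 582660 counts was the lowest in Ocn, and its summed levels of the other epithelial, mesenchymal and blood cell lists were the highest in Ocn as well, while its liver list, at 10.3 CPM, was not. The other epithelial microRNAs summed to 539 CPM in Ocn 3 and 301 to 432 CPM in the other Ocn libraries. The mesenchymal list summed to 63061 CPM in Ocn 3 and 45358 to 52233 CPM in the other Ocn libraries, and the blood cell list to 109500 CPM in Ocn 3 and 48917 to 68826 CPM in the other Ocn libraries. The part of these in the epithelial values of Ocn 3 was not tested. Without Ocn 3 the Ocn means were 134 CPM for miR-203-3p, 89.9 CPM for miR-200c-3p and 42.1 CPM for miR-141-3p.

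The variance between libraries, relative to that of counting alone, was 4.86 for miR-203-3p, 2.92 for miR-200c-3p and 3.54 for miR-141-3p in Ocn, and 1.75, 2.58 and 2.11 for the same microRNAs in Prx1. The median over the 234 tested entries was 6.84 in Ocn and 4.52 in Prx1, though this ratio grows with abundance and most tested entries were not matched to these levels. For the scarce members it ranged from 1.55 for miR-429-3p to 6.71 for miR-200b-3p in Ocn, and from 0.792 for miR-429-3p to 2.17 for miR-200a-3p in Prx1. In Prx1 the ratio was below 1 for miR-200b-3p and miR-429-3p. The ratio also grows with depth, so its values in the deeper Ocn libraries do not compare directly with those in Prx1. As a percentage of the mean, the SD of miR-203-3p, miR-200c-3p and miR-141-3p was 23.2%, 20.8% and 31.1% in Ocn. In Prx1 it was 17.4%, 27.5% and 35.8%.

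Apart from miR-141-5p, the opposite arms of the hairpins, which are normally degraded when the 3p arm is loaded, were nearly missing from the counts. miR-141-5p was the only one seen in more than 2 libraries, with 44 counts in all against 434 counts of miR-141-3p, or 9.21% of the counts of its hairpin. It was counted in 6 of 6 Ocn libraries (4.45 ± 1.98 CPM, SD, n = 6) and in 8 of 10 Prx1 libraries (5.02 ± 3.47 CPM, SD, n = 10), with a difference in mean log2(CPM + 1) of 0.13 (exact permutation p = 0.815). The hairpin is shown because both of its arms were counted, with miR-141-5p and then miR-141-3p in capitals (RefSeq, GRCm38.p6, chr6:124717914-124717985, minus strand).
Mir141: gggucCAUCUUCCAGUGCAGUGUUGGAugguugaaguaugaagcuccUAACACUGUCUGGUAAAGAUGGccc

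miR-200b-5p had 3 counts in 2 Ocn libraries and none in Prx1, and miR-200a-5p had 1 count in 1 Prx1 library and none in Ocn. miR-203-5p, miR-200c-5p and miR-429-5p were at 0 counts in all 16 libraries, which allows up to 1.95 to 5.15 CPM in an Ocn library and 3.69 to 13.3 CPM in a Prx1 library. The 3p counts of miR-203 and miR-200c, 1367 and 920 over all libraries, thus had no counted partner from the other arm.

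Of 11 listed entries for other microRNAs of epithelia, 10 had at least 1 count and 5 were tested, of which 0 passed with edgeR in either direction, and 0 had an unadjusted p under 0.05. Their sum was 379 ± 92 CPM over the Ocn libraries and 378 ± 64 CPM over the Prx1 libraries (SD, n = 6 and 10), and their median log2 fold change was -0.053, beside 0.010 over all tested entries. The most abundant, miR-192-5p, which is also abundant in gut, kidney and liver, had 191 CPM over Ocn and 192 CPM over Prx1, and a log2 fold change of -0.054 (SE 0.18, edgeR adjusted p = 0.871). miR-182-5p, of the sensory organ cluster it forms with miR-183 and miR-96, had a log2 fold change of -0.061 (SE 0.23, edgeR adjusted p = 0.879), and miR-34c-5p, known from ciliated epithelia and testis, one of 0.15 (SE 0.33, edgeR adjusted p = 0.824). miR-205-5p, a marker of stratified epithelia like miR-203, was not tested, with a mean of 7.15 CPM over Ocn and 5.12 CPM over Prx1. miR-96-5p, also not tested, went the other way, with 3.33 CPM over Ocn and 7.71 CPM over Prx1. Without a low-count filter edgeR gave log2 fold changes of 0.45 for miR-205-5p (adjusted p = 0.631) and -1.14 for miR-96-5p (unadjusted p = 0.0319, adjusted p = 0.267).

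Mesenchymal and blood microRNAs were far more abundant in the same libraries. The 10 listed mesenchymal and stromal entries summed to 51022 ± 6583 CPM over the Ocn libraries and 44343 ± 5060 CPM over the Prx1 libraries (SD, n = 6 and 10), and the 6 blood cell entries to 68145 ± 21591 CPM in Ocn and 69476 ± 9401 CPM in Prx1. Of the mesenchymal entries 3 were higher in Ocn with edgeR and 0 lower, in a table where 5.98% of the tested entries were higher. These were miR-99a-5p (log2 fold change 0.45), miR-218-5p (0.39) and miR-199a-5p (0.43). None of the 3 passed by exact permutation (adjusted p of 0.148, 0.0895 and 0.110) or with depth as a covariate, and each lost its call in at least 6 of the 16 edgeR fits with a library left out. The most abundant, miR-199a-3p, had a log2 fold change of 0.11 (edgeR adjusted p = 0.461).

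Of the blood entries 0 were higher and 2 lower in Ocn, where 7.69% of the tested entries were lower. The lymphocyte microRNA miR-150-5p (-1.05) kept its call in 25 of 26 alternatives, all but depth as a covariate, and passed by exact permutation (adjusted p = 0.0221). The erythroid miR-486a-5p (-0.38, edgeR adjusted p = 0.0451) lost its call in 15 of the 26 and did not pass by exact permutation (adjusted p = 0.217). The other erythroid entries had the opposite sign, with 0.22 for miR-451a (edgeR adjusted p = 0.440) and 0.58 for miR-144-3p (edgeR adjusted p = 0.0569), and miR-144-3p passed in 6 of 26 alternatives, with its lowest adjusted p of 0.00315 in edgeR without a low-count filter. The most abundant, miR-142a-3p, had a log2 fold change of 0.089 and did not pass. The part of these in the epithelial values was not tested.

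The entries most like each tested member across the libraries were sought by the mean absolute difference of ranks over the 16 libraries. For miR-203-3p they were miR-101b-3p and miR-340-5p, each with a mean difference of 2.875 ranks, and miR-322-5p with 3 ranks, where the median over 233 entries was 5.125 ranks. For miR-200c-3p they were miR-1981-5p with 2.875 ranks, and miR-130b-5p and miR-142a-5p with 3 ranks each, the median being 5 ranks. For miR-141-3p they were miR-101b-3p with 2 ranks, miR-142a-5p with 2.125 ranks and miR-126a-5p with 2.75 ranks, the median again being 5 ranks. The members were not each other's nearest entries. miR-203-3p and miR-141-3p lay 3.375 ranks apart, in place 9 of 233 by likeness to miR-203-3p. miR-200c-3p lay 3.875 ranks from its cluster partner miR-141-3p, in place 26 of 233 by likeness to miR-141-3p, and 4.75 ranks from miR-203-3p, close to the median.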

How the data were processed

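The deposited table holds raw counts per mature microRNA, 1 column per library, with no normalization by the authors as far as the values show. Per the submitters' processing notes, cutadapt 1.18 and build mm10 were used. Per the labels' protocols, each library took 1 ng of RNA into the QIAseq miRNA kit. Which aligner and counter were used, and whether they counted reads or molecular identifiers, is not given in the sources used here, so intervals and limits cover counting error only.

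Groups follow the sample titles. Sex and batch are not given per library, and p-values weigh the difference between the groups against the spread between libraries. From the counts, edgeR 4.0.16 in R 4.3.3 (TMM, filterByExpr, robust quasi-likelihood fit, group as the only term) tested 234 of the 973 entries with a count, with Benjamini-Hochberg adjustment and a threshold of 0.05. All 973 were also tested by exact permutation of log2(CPM + 1) with all 8008 assignments of 6 and 10 libraries to the groups (scipy 1.17.1). The edgeR step was tested on simulated data. Alternatives were DESeq2 1.42.0, other scalings, filters and pseudocounts, thinned counts, depth as a covariate, a replicate block and each library left out. The thinned counts are a single random draw, so values from them also carry the chance of that draw.

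Named entries followed a rule: the 6 microRNAs and their opposite arms, from each marker list the most abundant and up to 3 with the smallest p, the neighbours in level of miR-203-3p, and the 3 entries most like each tested member. miR-205-5p, miR-96-5p and miR-451a were named after their values were seen. The members and lists were chosen with earlier results of these data known.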

Additional observations from a re-analysis of the deposited data

Results flagged for a closer look

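Of 14 sets of library values checked (the 6 microRNAs and miR-122-5p in each group), 3 had a library far from the others. For normally spread values chance gives about 1 in 20, but low counts at unequal depths need not be spread so. miR-122-5p was included with earlier results of these data known, so its flag cannot be weighed against that rate. miR-200c-3p was 139 CPM in Ocn 3, and the next Ocn library had 94.2 CPM. miR-200a-3p was 31.7 CPM in Ocn 2, from 36 counts, and the next Ocn library had 18.9 CPM. miR-122-5p, the main microRNA of liver, was 1644 CPM in Prx1 5, and the next Prx1 library had 22.2 CPM. Ocn 3 and Prx1 5 were not far from the others in the sense used here for any other of the 6 microRNAs.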

How the results depend on the processing

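miR-203-3p, miR-200c-3p and miR-141-3p passed in none of the 26 alternatives to the edgeR fit, and none of the 6 passed in the exact permutation alternatives that tested it. miR-200a-3p entered 3 of the 26 (lowest adjusted p = 0.134, without a low-count filter) and miR-200b-3p and miR-429-3p entered 2, and they passed in none of these. The log2 fold change of miR-203-3p stayed above 0 in all 26 (0.017 to 0.22), as did that of miR-141-3p (0.018 to 0.53, the highest in thinned counts). That of miR-200c-3p, -0.023, turned to 0.11 with upper quartile scaling, 0.012 with library totals, 0.052 without a low-count filter, 0.14 with depth (log10 of the total) as a covariate, and 0.046 with the Prx1 libraries numbered 1 to 6 alone. In thinned counts it was -0.37 (edgeR adjusted p = 0.282), the lowest of all settings. With a library left out it ran from -0.096 to 0.090. Its exact permutation difference of 0.053 turned to -0.31 in the single random draw of thinned counts. With a library left out that difference ran from -0.051 to 0.11. The cause was not tested.

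With a replicate block on libraries 1 to 6, miR-200c-3p had 0.073 and 27 entries passed. Correlations of same-numbered libraries ran from 0.022 to 0.20, beside a mean of -0.025 for differently numbered ones. Only 1 of 6 Ocn libraries matched best with its own number. The numbers were not taken to pair the libraries, though these values do not exclude a weak pairing. The 32 edgeR calls became 0 with depth as a covariate (40 at an unadjusted p under 0.05), a fit in which depth and group cannot be told apart well. The 12 permutation calls became 7 in thinned counts and 23 over the 234 filtered entries, where fewer entries are adjusted over. Upper quartile scaling moved the median log2 fold change of all entries from 0.010 to 0.13. Depth limits miR-200a-3p, miR-200b-3p and miR-429-3p, which did not pass the low-count filter.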
